A study of Mus musculus with 15 samples.

Results

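The genes described here are 10 markers of cell proliferation, Mki67, Top2a, Cdk1, Ccna2, Ccnb1, Ccnd1, Ccnd2, Mcm2, Pcna and Rrm2, chosen by name from the 43629 genes counted in the brain. Whole brains of 15 wildtype male C57BL/6J mice were studied, 1 RNA-seq library per mouse. Young mice (3 months by the labels) and old mice (24 months) had food ad libitum (AL) or every other day (EOD, called intermittent fasting in the labels, begun at 2 months of age), with 4 AL and 3 EOD animals among the young and 4 of each among the old. The comparisons addressed whether age or EOD altered gene expression in the brain. Because the whole brain was used, fewer cells of a type and less RNA per cell cannot be told apart.

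A dividing cell passes through ordered phases. D-type cyclins start the cycle, the MCM helicase opens replication origins, PCNA and ribonucleotide reductase serve DNA synthesis, and cyclins A and B with CDK1 drive entry into mitosis. In the adult brain most neurons have left the cycle, and division is largely restricted to neural progenitors of the subventricular zone and dentate gyrus, oligodendrocyte precursors, and some glial and vascular cells. D-type cyclins are also transcribed in cells that do not divide.

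Total counts ranged from 5198748 to 13610729 per mouse, so 1 count was worth 0.0735 to 0.192 CPM (the count scaled to a common library total). Young AL mouse 3 stood apart from the others, with the highest total but the fewest genes with a count, 17280 against 19054 to 20880, and results that rest on it are given with and without it. Markers of neurons, astrocytes and oligodendrocytes were present in every mouse. Old AL mouse 4 also held pituitary RNA, with growth hormone (Gh) at 888 CPM against at most 14.9 CPM in the others. CPM of the members were scaled by TMM factors. Intervals from counts cover counting error only.

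Expression of the 10 genes covered a wide range. Per kilobase of exon, mean CPM over the 15 mice was 14.05 for Ccnd1, 10.1 for Ccnd2, 8.74 for Pcna, 2.23 for Ccna2 and 1.29 for Mcm2. It was 0.591 for Rrm2, 0.157 for Top2a, 0.125 for Mki67, 0.0973 for Cdk1 and 0.0723 for Ccnb1. The D-type cyclins and Pcna therefore lay above the genes of the mitotic program. Of the 10 genes, 8 passed edgeR's filter on low counts. Cdk1, with 51 counts in all mice together, and Ccnb1, with 44, did not pass and were too low to judge in the test across all genes.

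**Figure D1:**
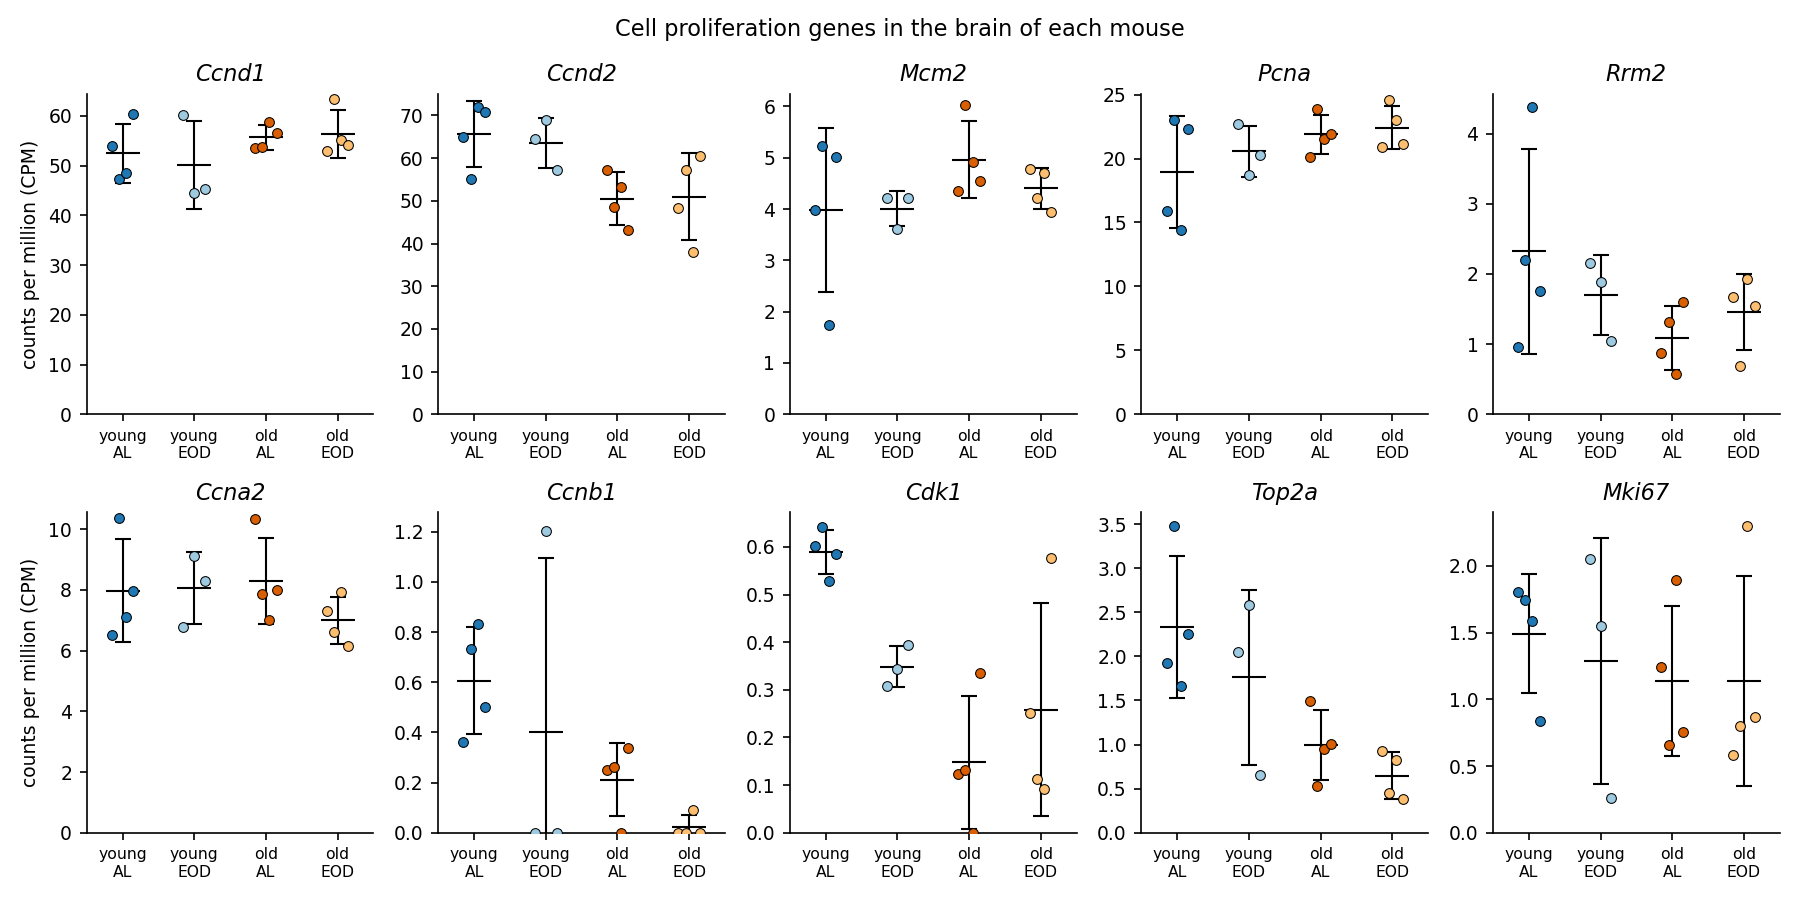
Expression of the 10 genes in CPM (linear axes starting at 0), with 1 point per mouse and, per group, the mean and SD as a horizontal line and bar (bars reaching below 0 are cut there). Top2a lay between 1.66 and 3.48 in young AL mice and between 0.525 and 1.49 in old AL mice, whereas Ccnd1 overlapped between all 4 groups.

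With age, Top2a and Ccnd2 fell when the difference was averaged over both diets, the other 6 tested members did not pass the threshold, and none of the 8 rose. These 2 of 8 compare with 2.32% of the 15864 genes tested that passed FDR 0.1 in either direction and 0.712% that passed it as decreased. The median log2 fold change of the 8 members was -0.19 (-0.20 without young AL mouse 3), against -0.00 for all genes tested. Within AL mice 0 of 8 members passed (background 1.08%) and within EOD mice 0 of 8 (background 0.296%) in edgeR and in DESeq2, with 3 and 2 members at an unadjusted p under 0.05 in edgeR, which 9.46% and 5.76% of all genes tested reached. Top2a passed the filter on low counts through the young mice, with 6 of 7 young and 1 of 8 old mice at or above its limit of 1.01 CPM, so the count and median over the tested members are descriptions only. In edgeR on every gene with at least 1 count, where all 10 members were tested, Top2a and Ccnd2 passed (adjusted p = 0.0164 and 0.000716). In that fit 558 of 26269 genes passed with age averaged over diets. It also called 8 genes for diet averaged over ages, where the main fit called 0.

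Top2a encodes topoisomerase II alpha, which untangles DNA strands so that chromosomes can separate, and is made mostly in S phase to mitosis (chr11:98992943-99024189, minus strand, GRCm38). Young AL mice 1 to 4 had 1.93, 3.48, 1.66 and 2.26 CPM, and the young EOD mice had 2.05, 2.58 and 0.657 CPM. Old AL mice had 1.49, 0.525, 0.946 and 1.01 CPM, and old EOD mice had 0.921, 0.455, 0.829 and 0.385 CPM. In AL mice every old animal was below every young one, which 4.56% of the genes tested showed in either direction, while young EOD mouse 3 lay among the old EOD mice. The age difference averaged over diets was -1.30 on the log2 scale (SE 0.330, 95% interval -1.98 to -0.61, edgeR quasi-likelihood test, adjusted p = 0.0491), a fall by 59.3%. Within AL mice it was -1.21 and within EOD mice -1.38, with edgeR adjusted p of 0.327 and 0.668. Without young AL mouse 3 the averaged value was -1.36 (edgeR adjusted p = 0.0161). Within each of the 3 sequencing lanes the mean of the old mice was lower (differences of -0.91 to -1.44 on the log2 scale). Single mice overlapped in lane 2, and lane 3, with the difference of -1.44, held a single young mouse. The call rested on few counts, between 4 and 38 per mouse, and was lost on leaving out any of 5 single mice, young EOD 1 or 2, old AL 2, or old EOD 2 or 4, with edgeR adjusted p up to 0.192.

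Ccnd2 encodes cyclin D2, a G1 cyclin that activates CDK4 and CDK6 and is used by neural progenitors (chr6:127125779-127151048, minus strand). Young AL mice had 65.0, 55.2, 71.9 and 70.8 CPM, and young EOD mice had 64.5, 68.9 and 57.2 CPM. Old AL mice had 57.3, 48.6, 53.2 and 43.1 CPM, and old EOD mice had 48.2, 57.1, 37.9 and 60.6 CPM. The ranges of young and old mice overlapped within both diets. The averaged age difference was -0.35 (SE 0.0924, 95% interval -0.54 to -0.16, edgeR adjusted p = 0.0592), a fall by 21.6%. It was -0.38 in AL mice and -0.32 in EOD mice, with edgeR adjusted p of 0.246 and 0.812. Within lanes 1, 2 and 3 the mean of the old mice was lower (differences of -0.22, -0.31 and -0.61), with overlap between single mice in lane 1, and lane 3 held a single young mouse. The call was lost without young AL mouse 3 (-0.32, edgeR adjusted p = 0.112), with lane as a covariate (edgeR adjusted p = 0.147) and without the mouse with pituitary RNA, old AL 4 (-0.31, edgeR adjusted p = 0.131). It was also lost on leaving out young EOD mouse 1 or 2, old AL mouse 2, or old EOD mouse 1 or 3 (edgeR adjusted p up to 0.187). The files also list 9330179D12Rik on the opposite strand over part of the gene, with 335 counts in all, and the counting used strand.

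Ccnd1 encodes cyclin D1, the other G1 cyclin examined. It ranged from 47.3 to 60.3 CPM in young AL mice, 44.5 to 60.3 in young EOD mice, 53.5 to 58.8 in old AL mice and 52.9 to 63.4 in old EOD mice. The averaged age difference was 0.12 (95% interval -0.03 to 0.28), and the edgeR adjusted p was 0.564. A decrease of the size seen for Ccnd2 lay outside this interval. Whether the differences of the 2 cyclins themselves differ was not tested.

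Mcm2 and Pcna gave small positive estimates that did not pass the test. Mcm2, a subunit of the replicative helicase, averaged 3.99 ± 1.60 CPM in young AL (SD, n = 4), 4.01 ± 0.345 in young EOD (n = 3), 4.96 ± 0.754 in old AL (n = 4) and 4.41 ± 0.396 in old EOD mice (n = 4). Its averaged age difference was 0.22 (95% interval -0.18 to 0.63, edgeR adjusted p = 0.712). Pcna, the sliding clamp of the DNA polymerases, averaged 18.9 ± 4.38, 20.6 ± 1.99, 21.9 ± 1.54 and 22.4 ± 1.71 CPM in the same order of groups. Its averaged age difference was 0.16 (95% interval -0.05 to 0.37, edgeR adjusted p = 0.570). Young AL mouse 3 was the lowest of all 15 mice for both genes, at 1.74 and 14.4 CPM, and without it the age differences were 0.094 and 0.11. The files list processed copies of Pcna and Ccnb1, and reads that align equally well to a gene and its copy may not have been counted.

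Rrm2, the regulated subunit of ribonucleotide reductase that supplies deoxynucleotides in S phase, had 0.964, 2.20, 4.38 and 1.76 CPM in young AL mice and 2.16, 1.89 and 1.05 CPM in young EOD mice. Old AL mice had 0.870, 1.31, 0.567 and 1.60 CPM, and old EOD mice had 1.68, 0.683, 1.93 and 1.54 CPM. The averaged difference was -0.63 (95% interval -1.32 to 0.06, edgeR adjusted p = 0.473). Without young AL mouse 3, the mouse at 4.38 CPM, it was -0.36.

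Ccna2 (cyclin A2, which acts in S phase and at entry into mitosis) ranged from 6.16 to 10.4 CPM over the 15 mice. Its averaged age difference was -0.06 (95% interval -0.34 to 0.21, edgeR adjusted p = 0.904). The gene overlaps Exosc9 on the opposite strand, which had 6590 counts in all. Mki67 encodes the Ki-67 protein that coats mitotic chromosomes and marks cycling cells. It had between 2 and 25 counts per mouse, from 0.263 CPM in young EOD mouse 3 to 2.30 CPM in old EOD mouse 3, and both extremes fell in EOD groups. Its averaged age difference was -0.32 with a 95% interval from -1.13 to 0.48 (edgeR adjusted p = 0.809), which holds both a fall by 54.2% and an increase by 39.3%. Leaving out 1 mouse moved it between -0.62 (without old EOD mouse 3) and -0.02 (without young EOD mouse 1). The difference seen for Top2a therefore lay outside the interval of Mki67, and the difference between the 2 genes was not tested.

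Cdk1, the kinase that drives mitosis, had 5, 7, 7 and 7 counts in young AL, 3, 2 and 3 in young EOD, 1, 1, 0 and 4 in old AL and 3, 1, 1 and 6 in old EOD mice. Every old AL mouse was below every young AL mouse in CPM for Cdk1 and for Ccnb1, against 4.56% of the genes tested without overlap between these groups, although the count of 0 of old AL mouse 3 allowed a level within the young AL range of both. By contrast, old EOD mouse 4, at 0.577 CPM of Cdk1, was above all young EOD mice. Ccnb1, cyclin B1 and the partner of CDK1, had 3, 8, 11 and 6 counts in young AL, 0, 7 and 0 in young EOD, 2, 2, 0 and 4 in old AL and 0, 0, 1 and 0 in old EOD mice. A count of 0 allowed up to 0.250 to 0.577 CPM, depending on the mouse. Summed over mice, Cdk1 had 0.500 CPM in young (95% Poisson interval 0.347 to 0.699) and 0.227 in old brains (0.132 to 0.364), and Ccnb1 had 0.515 (0.359 to 0.716) and 0.120 (0.0550 to 0.228). In the exact two-sided permutation test of age within diets, applied to these 2 genes, the difference of old from young mice was -0.266 CPM for Cdk1 (p = 0.0135) and -0.387 CPM for Ccnb1 (p = 0.0102), without adjustment, where 0.000408 is the smallest p that 2450 arrangements allow. In edgeR on every gene with at least 1 count, neither passed (adjusted p = 0.696 and 0.144).

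**Figure D2:**
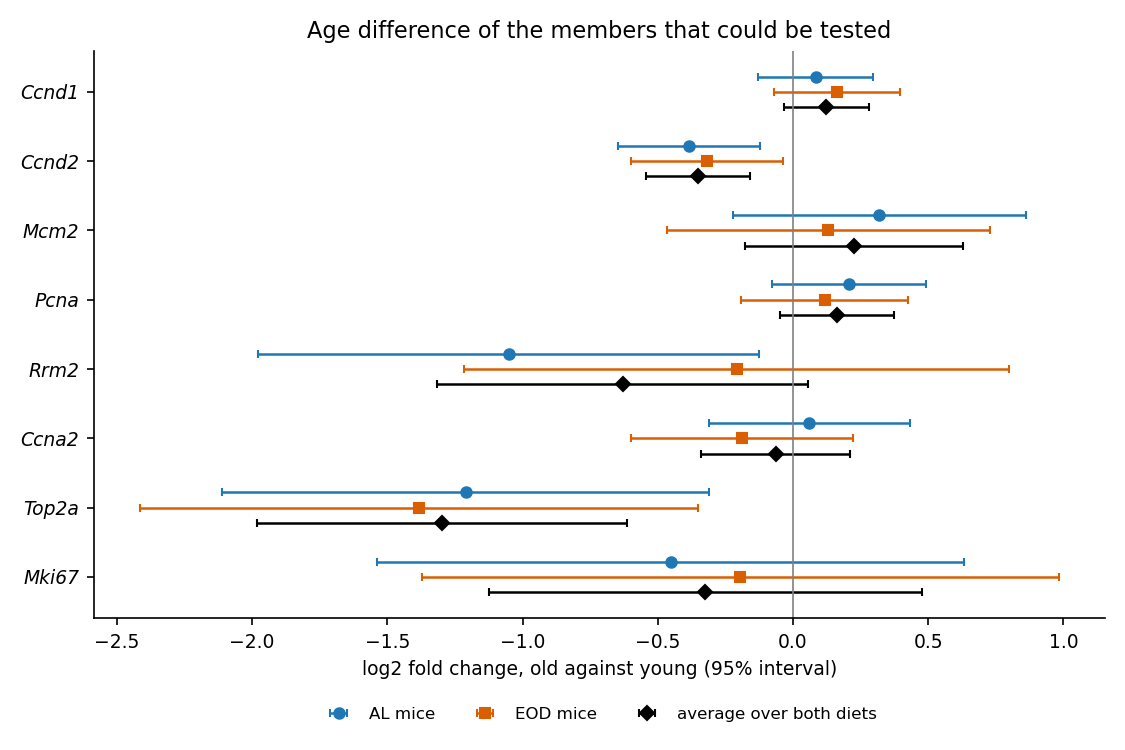
Log2 fold change of old against young mice for the 8 members that could be tested, in AL mice (circles), EOD mice (squares) and averaged over both diets (diamonds), with 95% intervals from edgeR. The averaged intervals of Top2a (-1.98 to -0.61) and Ccnd2 (-0.54 to -0.16) lie below 0, and those of the other members include 0.

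The sequences upstream of mitotic members are shown because these genes are known to share promoter elements, a CCAAT box bound by NF-Y and the cell cycle homology region (CHR) bound by the DREAM and MuvB complexes. RefSeq promoters were at hand for 7 of the 10 members (GRCm38.p6), not for Ccna2, Ccnd1 and Ccnd2. The 250 bases before the gene start are given for Top2a (chr11:99024190-99024439, minus strand), Mki67 (chr7:135716380-135716629, minus strand) and Cdk1 (chr10:69352913-69353162, minus strand), written 5′ to 3′ with matches to CCAAT or TTTGAA on either strand in capitals.
Top2a: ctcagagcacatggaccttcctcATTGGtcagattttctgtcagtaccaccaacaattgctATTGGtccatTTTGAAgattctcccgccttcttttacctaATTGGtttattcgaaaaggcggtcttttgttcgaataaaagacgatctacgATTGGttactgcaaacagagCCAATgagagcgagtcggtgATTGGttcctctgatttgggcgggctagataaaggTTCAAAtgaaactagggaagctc
Mki67: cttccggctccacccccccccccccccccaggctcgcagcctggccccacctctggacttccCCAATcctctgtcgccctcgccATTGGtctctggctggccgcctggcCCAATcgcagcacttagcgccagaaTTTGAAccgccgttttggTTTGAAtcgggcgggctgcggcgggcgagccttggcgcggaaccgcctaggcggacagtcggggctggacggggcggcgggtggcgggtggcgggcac
Cdk1: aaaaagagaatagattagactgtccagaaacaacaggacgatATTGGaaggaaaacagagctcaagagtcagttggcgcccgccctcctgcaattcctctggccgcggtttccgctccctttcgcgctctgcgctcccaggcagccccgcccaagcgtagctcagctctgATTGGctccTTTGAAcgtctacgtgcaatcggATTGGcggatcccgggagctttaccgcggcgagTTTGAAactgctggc

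In these windows Top2a held 6 CCAAT and 2 TTTGAA matches, Mki67 and Cdk1 each 3 and 2, and Ccnb1 2 CCAAT and no TTTGAA matches. Mcm2 held 1 of each, and Pcna and Rrm2 held 1 CCAAT match each. No CCAAT match shared a base with a TTTGAA match. CCAAT was present in 7 of 7 members and in 33.8% of all 32851 promoters, and TTTGAA in 4 of 7 members and 15.99% of promoters. Both were present in 4 of 7 members and 5.55% of promoters, and at least 6 CCAAT matches in 0.0578% of promoters. Among 97 promoters of the cell cycle lists described below, 58.8% held CCAAT, 21.6% TTTGAA and 17.5% both. The last 26 bases of the Cdk1 window lie inside the gene model of the count files, as do the last 134, 84 and 13 bases of the windows of Pcna, Ccnb1 and Rrm2. A match describes the letters only, and binding was not measured.

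**Figure D3:**
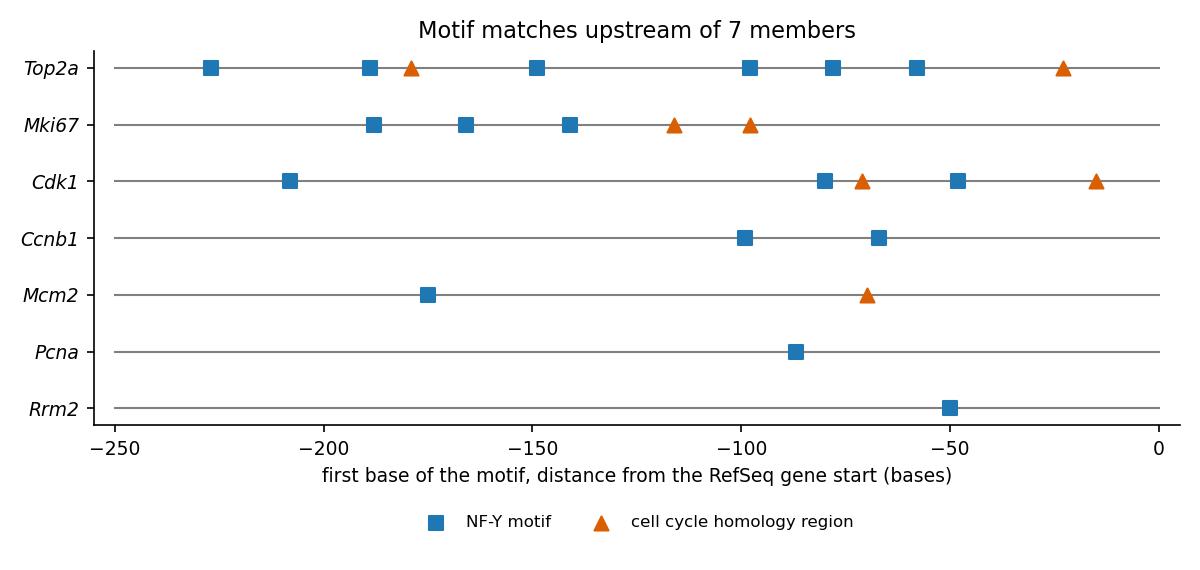
Position of CCAAT matches (NF-Y motif, squares) and CHR matches, TTTGAA (triangles), on either strand in the 250 bases upstream of the RefSeq start of 7 members. Top2a holds 6 CCAAT matches, the most among these members, and Ccnb1, Pcna and Rrm2 hold no TTTGAA match.

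No diet difference was detectable in the 8 members tested. In edgeR 0 of 8 members passed FDR 0.1 between EOD and AL in young mice, in old mice or averaged over ages, and 0 of 8 for the interaction of age and diet (background 0% in each), with 0 at an unadjusted p under 0.05, and DESeq2 likewise gave 0. Averaged over ages, the 95% interval of EOD against AL was -0.18 to 0.14 for Ccnd1, -0.21 to 0.17 for Ccnd2 and -0.13 to 0.29 for Pcna. For the rarer genes it was wide, -1.19 to 0.18 for Top2a, -0.86 to 0.76 for Mki67 and -0.75 to 0.64 for Rrm2. In edgeR on every gene with at least 1 count, Ccnb1 had a diet difference of -1.76 averaged over ages (unadjusted p = 0.0264) that did not pass after adjustment. The interaction of Top2a was -0.17 (95% interval -1.52 to 1.17). Cdk1 was lower in all 3 young EOD mice (0.308, 0.344 and 0.394 CPM) than in all 4 young AL mice (0.529 to 0.641 CPM), at 2 to 7 counts per mouse, and 4.45% of the genes tested showed no overlap between these groups.

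The members were set beside other genes of the cell cycle, 95 in 7 lists, of which 77 could be tested. With age, averaged over diets, 1 rose and 0 fell in edgeR at FDR 0.1 (2.32% of all genes passed), with 8 at an unadjusted p under 0.05, 4 in each direction, a share below the 11.7% of all genes tested, and 1 called by DESeq2. Their median log2 fold change was -0.05. Without young AL mouse 3 it was -0.02, and 2 genes passed, Anln and Cenpf, a kinetochore protein that was lower in old mice (edgeR adjusted p = 0.0809). With all mice Cenpf had -0.98 and did not pass (edgeR adjusted p = 0.135). It had only 3 to 23 counts per mouse in the mice other than young AL mouse 3. The mitosis list, members included, had a median of -0.16, against -0.00 for all genes tested, and 10 of its 33 genes were too low to test. Of the 23 tested, 20 were below 0 and 1 was called in each direction, Anln and Top2a (2.32% of all genes passed). Without young AL mouse 3, 3 of 21 were called, against 406 of all 15687 genes then tested. Because Top2a passed the filter on low counts through the young mice, the counts and median of this list are descriptions only. The DNA synthesis list had a median of 0.08, with 12 of 17 genes above 0 and none called.

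Anln, the anillin scaffold of the cleavage furrow that is also expressed by myelinating oligodendrocytes, was the 1 that rose. It ranged from 46.8 to 92.9 CPM in young AL, 67.3 to 87.5 in young EOD, 105 to 144 in old AL and 99.6 to 137 in old EOD mice. The ages did not overlap in AL mice, which 4.56% of the genes tested showed in either direction. The averaged difference was 0.73 (SE 0.128, edgeR adjusted p = 0.00653) and 0.66 without young AL mouse 3. Of 5 oligodendrocyte markers, Mbp passed (0.29, edgeR adjusted p = 0.0317), and the summed level of the 5 was 5026 to 5979 CPM in young and 5660 to 6577 CPM in old mice. Their part in the value of Anln was not tested.

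Among the other named genes, the one with the smallest p in each list did not pass. Ccne2 (cyclin E2) had -0.39, Mcm5 -0.25, Lig1 (DNA ligase 1) 0.39, Rrm1 0.07, Foxm1, a transcription factor of mitotic genes, -0.59, and Cdkn2c, an inhibitor of CDK4 and CDK6, -0.45. Their edgeR adjusted p lay between 0.157 for Lig1 and 0.803 for Rrm1. Without young AL mouse 3, Ccne2 had -0.16 and Rrm1 0.15, and neither passed. The most highly expressed genes of the lists per kilobase, Cdk4, Orc6, Rfc2, Dut, E2f6 and Cdkn2d, had averaged differences between -0.05 and 0.12.

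**Figure D4:**
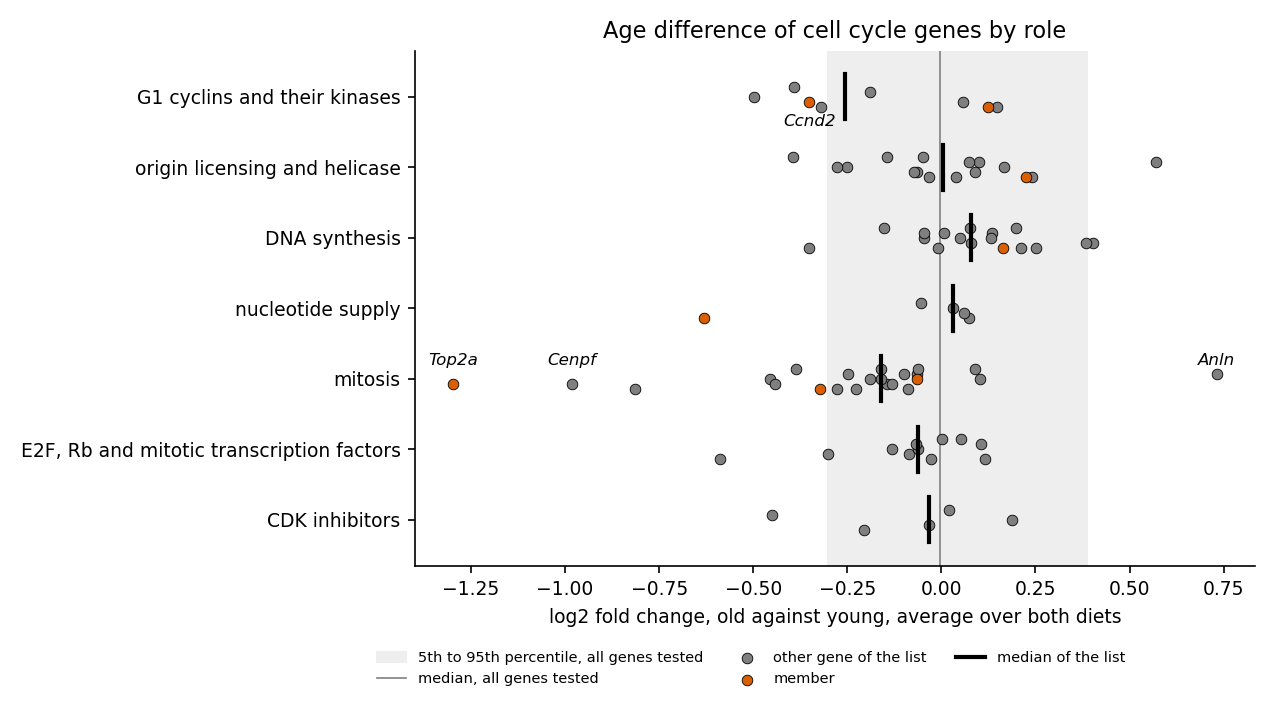
Log2 fold change of old against young mice, averaged over diets, for each tested gene of the 7 cell cycle lists (grey, other genes; orange, members), with the median of each list (black bar) and the 5th to 95th percentile of all genes tested (shaded, -0.30 to 0.39). Top2a and Anln lie outside the shaded range at opposite ends of the mitosis list.

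Some markers of cells that divide in the adult brain also differed with age. Of 8 markers of neural progenitors and newborn neurons, 2 fell, Igfbpl1 (-1.33, edgeR adjusted p = 0.0154) and Sox4 (-0.57, edgeR adjusted p = 0.0118), and none rose. In edgeR 4 of the 8 had an unadjusted p under 0.05. Of all genes tested, 2.32% passed FDR 0.1, 0.712% passed it as decreased, and 11.7% had an unadjusted p under 0.05. The summed level of the 8 markers was 101 to 198 CPM in young and 94.9 to 149 CPM in old mice, and no marker was at 0 in any mouse. Single markers could vary widely within a group, as Eomes did in old EOD mice (1.48 to 17.3 CPM). Of 5 markers of oligodendrocyte precursors, Gpr17 fell (-0.56, edgeR adjusted p = 0.00438) and was the 1 with an unadjusted p under 0.05. The summed level of these 5 was 141 to 170 CPM in young and 126 to 146 CPM in old mice. None of the 4 endothelial, 4 astrocyte, 5 neuronal, 4 choroid plexus, 5 red blood cell and 3 tested pituitary markers passed in edgeR, with 2, 1, 1, 0, 3 and 0 of them at an unadjusted p under 0.05. The part of these cells in the values of Top2a and Ccnd2 was not tested.

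The genes whose levels ran most like those of the 3 most abundant members were found by Spearman's rho over the 15 mice among 14118 genes, as a description that includes age and library differences. For Ccnd2 they were Frmd4a (0.925), Dusp18 (0.921) and Mgat5 (0.921), for Ccnd1 Anks1 (0.964), Polrmt (0.925) and Ttbk1 (0.918), and for Pcna Cdk18 (0.864), Npas1 (0.843) and Lhx2 (0.825). None of the 9 belongs to the cell cycle lists. Without young AL mouse 3 the values were 0.785 to 0.965.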

How the data were processed

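Whole-brain RNA of 15 mice was sequenced on 3 lanes. The authors aligned reads with STAR to GRCm38 and counted them with featureCounts 1.5.0-p1 on Ensembl release 79 genes (minimum mapping quality 5, primary alignments, reverse strand), and the deposited values are raw counts per gene. Reads of near-identical copies can be lost at this mapping quality. Everything from the counts on was computed here with edgeR 4.0.16 in R 4.3.3 (TMM, filterByExpr with a minimum count of 10, quasi-likelihood test, Benjamini-Hochberg adjustment over 15864 genes, FDR 0.1), in 1 fit of the 4 group means. SE was derived from each log2 fold change and its F statistic (their ratio, with F under the root). CPM are scaled by TMM. Members below the filter were tested by exact permutation of age within diet. Likeness was computed on log2 CPM (prior count 2) for genes averaging 1 or more on that scale. Steps were tested on simulated data. DESeq2 1.42.0 was an alternative.

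The members and gene lists were chosen with earlier results of these data known. Named genes were all members, other listed genes past FDR 0.1, the gene with the smallest p and the most highly expressed gene per kilobase of each list, and the 3 genes most like each of the 3 most abundant members. Replicate numbers did not pair the mice. The labels do not say whether mice shared litters or cages. No 2 libraries of the same group were duplicates (chi-square per degree of freedom at least 3.01 over 21 pairs), and pairs across groups were not compared. The result of 1 marker list is not reported here.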

Additional observations from a re-analysis of the deposited data

Results flagged for a closer look

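In 2 of the 30 groups of 4 mice examined (10 genes, 3 groups), 1 mouse lay far from the others, and chance flags about 1 in 20 groups. Mki67 was 2.30 CPM in old EOD mouse 3, against 0.866 CPM in the next of its group. Ccnb1 was 0.0921 CPM in the same mouse, which is 1 count, against 0 in the other 3 mice of its group. A group with a single nonzero value is flagged whatever that value is. The rate of about 1 in 20 therefore does not hold for Ccnb1.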

How the results depend on the processing

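The alternatives were other filters, RLE factors, DESeq2, an FDR of 0.05, replicate number as a block, lane, fits of 2 groups alone, and omission of each mouse in turn. Lane together with leaving out young AL mouse 3 was chosen after seeing the data. Averaged over diets, 2 members passed with age. This became 1 with at least 10 counts in every mouse (Ccnd2), where 5 members were tested and Top2a was not among them. It was also 1 with FDR 0.05 (Top2a), lane (Top2a) and lane without young AL mouse 3 (Top2a), 0 with the replicate block, and 0 to 2 on leaving out 1 mouse. The block gave edgeR adjusted p of 0.106 for Top2a and 0.105 for Ccnd2, and 259 genes against 368. Same-numbered mice did not deviate together (mean r -0.0266), so the numbers were not taken to pair them, although every mouse numbered 1 was on lane 1 and every mouse numbered 4 on lane 3. With every gene of at least 1 count, 1 member, Ccnd2, passed in AL mice, where 323 of all 26269 genes passed. Top2a remained negative in 22 of 22 alternatives (-1.50 to -1.14) and Ccnd2 in 23 of 23 (-0.40 to -0.29). These are not independent, because FDR 0.05 uses the main fit and the other alternatives use the same mice or all but 1. The exact permutation test of Cdk1 and Ccnb1 was repeated only with CPM on raw library totals and without young AL mouse 3. In these repeats of the exact permutation test, both genes kept their direction and side of p = 0.05. It was not repeated without any other mouse or with lane. The averaged age count of all genes was 558 with at least 1 count and 235 at FDR 0.05. Estimates near 0 changed sign. On leaving out 1 mouse, Ccna2 with age ranged from -0.13 to 0.0095, and the interaction of Top2a from -0.57 to 0.15. The diet difference averaged over ages ranged from -0.36 to 0.19 for Mki67, -0.10 to 0.016 for Ccnd1, -0.066 to 0.042 for Ccnd2 and -0.17 to 0.19 for Rrm2, and with lane and without young AL mouse 3 it was 0.073 for Mki67 and 0.32 for Rrm2. Genes of few counts, Mki67 and Rrm2 among them, were measured with wide intervals.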

Other observations

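Young AL mouse 3 was the highest or lowest of the 15 mice for 42 of the 85 tested cell cycle genes (49.4%), against 42.3% of all genes tested, and the next mouse was so for 15. It had no count of 6 of these 85 genes that every other mouse expressed, Cdk6, Cdc45, Pole, Cenpe, Kif23 and Ect2. These 6 were named after their values were seen, and the share of such genes among all genes tested was not determined. This library also had the fewest genes with a count. Ccne2 (37.0 CPM against 10.8 to 18.2) and Dbf4, the activator of the origin kinase CDC7 (3.47 against 0.964 to 1.84 CPM), were above all other mice.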
